A study of Arabidopsis thaliana with 9 samples.

Results

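In these arrays 14 genes, of 13356 with a probe set of their own, had mean levels that stepped up from arrays labelled mock to arrays labelled NAA and again to arrays labelled NAA+BA. They were chosen on these same values: the NAA+BA mean was above 6 on the log2 scale, the NAA mean was at least 0.5 above the mock mean, and the NAA+BA mean was at least 0.5 above the NAA mean. Named hormone, metabolism, transcription factor, nucleolar, RNA polymerase I, cell wall and meristem genes were left out by name. This removed 1 gene that met the same limits, the type-A response regulator ARR15. All 9 arrays and every contrast went into that choice, so the sizes of the steps below are a description and carry no test.

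The samples were cauline buds, the axillary buds of the leaves borne on the flowering stem, taken at node 1 of wild-type Col-0 plants of 3 to 4 weeks. Stem segments carrying a bud stood in split agar plates and received ethanol as mock, 1 µM apical NAA (1-naphthaleneacetic acid, a synthetic auxin), or 1 µM apical NAA with 1 µM basal BA (6-benzylaminopurine, a synthetic cytokinin), and buds were harvested after 18 h. Each group had 3 biological replicates, hybridised to Affymetrix ATH1 arrays, and the labels do not say how many buds made up a replicate. No group received BA alone, so by the labels the second step compares BA only in the presence of NAA.

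The names of 2 groups are in conflict between the deposited labels and the study. In a table of array results that accompanies the study, all 220 probe sets have the direction that is obtained when the names mock and NAA are exchanged, and 0 have the direction of the deposited labels. With the names exchanged, the values recomputed here and those of the table differed by at most 5e-06 on the log2 scale. The study's text reports only 2 genes that differed between mock and auxin plus cytokinin, and lists ARR15 among those lowered by auxin. By label, limma called 284 of 13356 genes higher in NAA+BA than in mock (adjusted p under 0.05, at least 2-fold). Of the same 13356 genes it called 0 higher in NAA+BA than in NAA. That count leaves out probe sets with no gene or several genes in the annotation, so it is not a count over the whole array. ARR15 was higher in NAA than in mock. Groups are given here by the deposited labels; under the other naming the same 14 genes would be lowest with auxin alone, intermediate with ethanol and highest with auxin plus cytokinin, and 0 genes would rise from ethanol to auxin and again to auxin plus cytokinin. The naming also sets what each step compares: with the names exchanged, the second step would set auxin plus cytokinin against ethanol, and the difference between NAA+BA and mock would set it against auxin alone. Every step, difference and call below is therefore one between labels.

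Auxin that moves down the main stem keeps axillary buds inactive in many plants, and cytokinin supplied from below can release them from that inhibition. A bud that leaves dormancy builds ribosomes and draws on stored and imported sugar before it grows visibly. In whole buds, fewer cells of a type and less RNA per cell cannot be told apart.

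Array medians lay between 6.99 and 7.11. Mock replicate 3 stood apart: limma's array weights, which scale an array by how closely it follows its group over all probe sets, gave it 0.156, the lowest of the 9, followed by 0.235 for NAA replicate 3. Of the 13 symbols listed as bud and shoot meristem markers, the platform table named 2, LAS and CLV3, whose average lay between 4.62 and 5.42 on the 9 arrays, so these markers said little about the tissue. The only mature leaf marker named, RCA, the activase of Rubisco, was at 13.36 to 13.72 on mock, 12.96 to 13.17 on NAA and 12.57 to 13.04 on NAA+BA arrays, an order opposite to that of the stepwise genes, and its part in their values was not tested.

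Stepwise genes were rare. The NAA+BA mean was above 6 for 7456 genes, and 1281 of these had an NAA mean at least 0.5 above the mock mean. Of the 1281, 1249 had NAA and NAA+BA means less than 0.5 apart, 17 were lower in NAA+BA by 0.5 or more, and 15 were higher by 0.5 or more, which are the 14 genes described here and ARR15. ARR15 had larger steps than any of them, with means of 5.17 ± 0.12 on mock, 8.0 on NAA and 9.52 ± 0.39 on NAA+BA arrays (SD, n = 3), or steps of 2.83 and 1.51. The gene annotation names no gene for 8794 of the 22810 probe sets on the array, and 24 such probe sets also met the limits, so the 14 genes and ARR15 are the annotated portion of 39 probe sets.

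**Figure D1:**
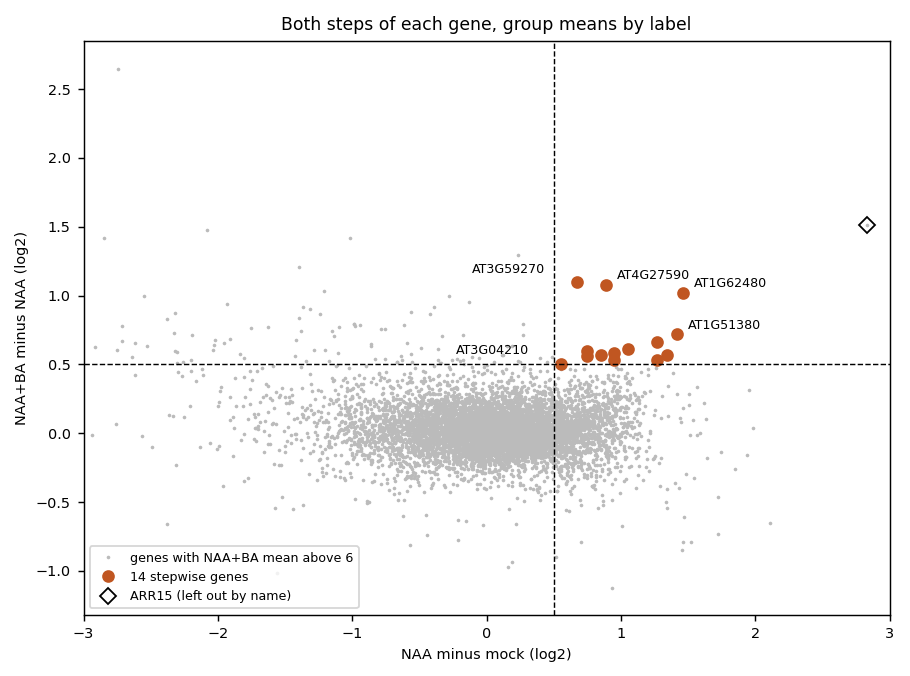
Step from mock to NAA (horizontal axis, log2) against step from NAA to NAA+BA (vertical axis, log2) for each of the 7456 genes with an NAA+BA mean above 6; dashed lines mark the limits of 0.5, and 9 genes lie outside the horizontal axis. The 14 stepwise genes occupy the upper right corner close to the limits, with ARR15 far beyond them, while most genes right of the vertical line lie near 0 on the second step.

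Over the 14 genes, the difference between the NAA and mock means had a median of 0.95 (1.94-fold) and ran from 0.55 to 1.46, against a median of 0.04 over all 13356 genes. The second step was smaller, with a median of 0.59 (1.51-fold) and a range of 0.50 to 1.1, against a median of 0.00 over all genes. From mock to NAA+BA the genes were higher by 1.06 to 2.48 (median 1.71, or 3.28-fold). The first step made up 38.1% to 70.7% of the whole difference (median 61.0%) and was the larger in 12 genes. The second step was the larger in AT4G27590 and AT3G59270.

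With limma over all probe sets, 5 of the 14 genes were called higher in NAA than in mock at an adjusted p under 0.05 and at least 2-fold, where 1.16% of all genes were called in that direction. Leaving out mock replicate 3 gave 10 calls in place of 5, leaving out mock replicate 1 gave 1, and leaving out mock replicate 2, NAA replicate 1 or NAA replicate 2 gave 2, while AT4G04940 was added when same-numbered arrays were paired. Shares over all genes under these settings are not given here, so the changes are not read as particular to the 14 genes. For NAA+BA over mock 13 of 14 were called, beside 2.13% of all genes. For NAA+BA over NAA 0 of 14 were called, beside 0% of all genes, although the means of these 14 were chosen to differ: limma gave an unadjusted p under 0.05 for 3 of them, and for 294 of all 13356 genes (2.20%). As the choice of genes used each of these contrasts, nothing is read from the counts.

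The separation of single arrays gives a second description. All 14 genes had every NAA+BA array above every mock array, which held for 17.9% of all genes. In 8 genes every NAA array was above every mock array (16.3% of all genes). Without mock replicate 3 this held for all 14, and for 3640 of all 13356 genes. In 10 genes every NAA+BA array was above every NAA array (5.08% of all genes). Both steps were free of overlap in 5 genes, AT1G51380, AT4G27590, AT2G43590, AT3G12860 and AT3G59270, and both overlapped in AT3G04210. The share of all genes free of overlap at both steps is not given here, so nothing is read from that count.

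**Figure D2:**
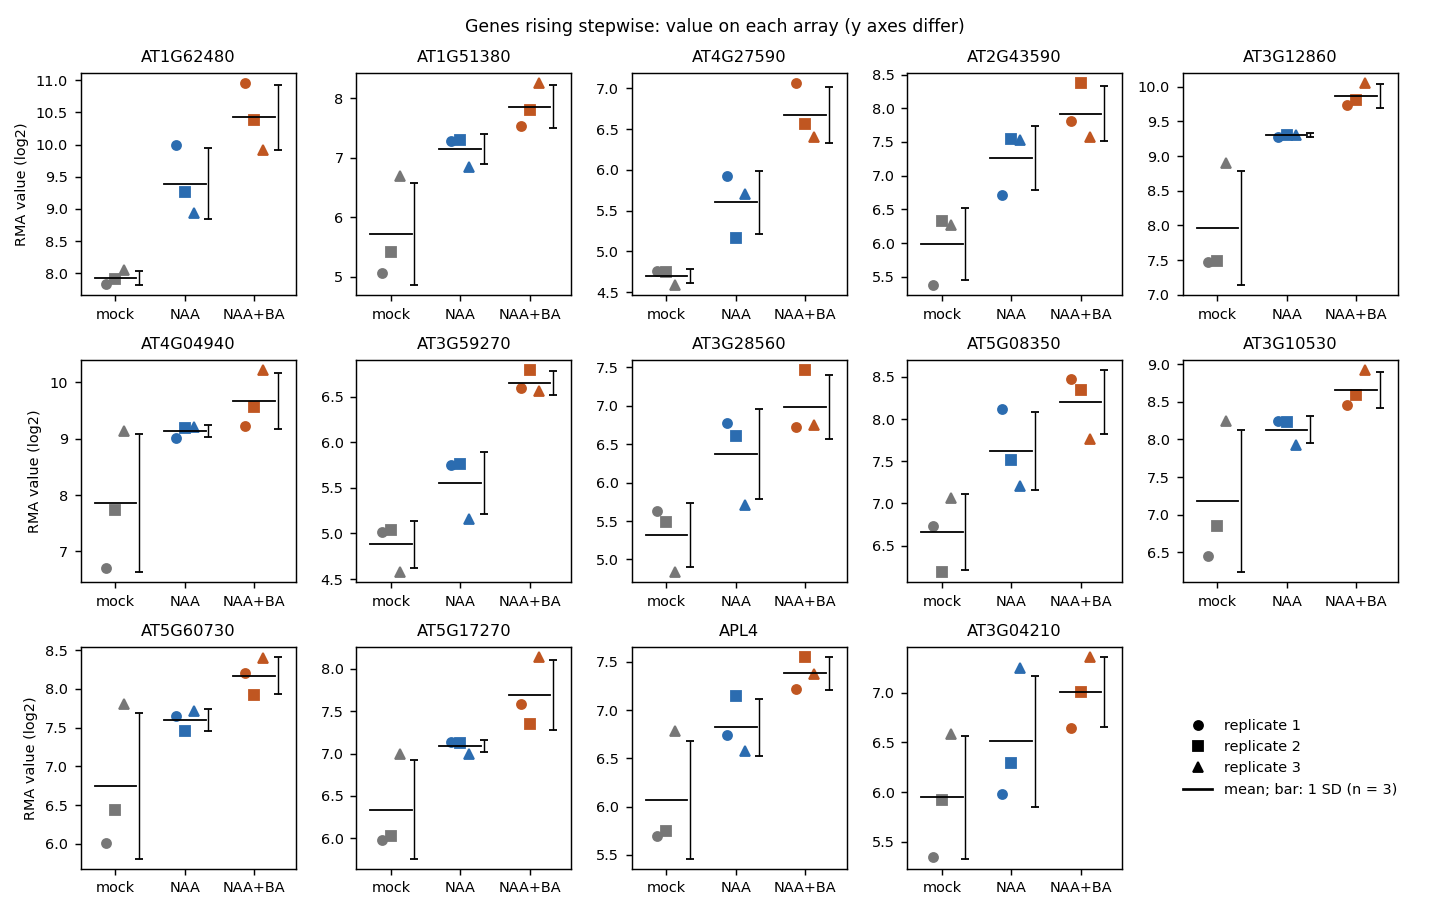
RMA value (log2, vertical axes, which differ between panels) of each stepwise gene on every array, by labelled group; symbols give the replicate, horizontal lines the mean and side bars 1 SD (n = 3). In 9 panels the mock triangle, replicate 3, is the highest mock array and over 0.5 above the mean of the other mock arrays, least so in AT5G08350 (0.61), while AT1G62480 and AT4G27590 have 3 mock arrays close together and below all others.

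Of the 14 genes, 5 have a described product in the table that accompanies the study, and a sixth, APL4, has a gene symbol; the others are known here by locus only. The genes with a described product were listed there because they differed between these same samples, so their presence in it is not independent of the values below. RefSeq's annotation (TAIR10.1) lists all 14 as protein-coding. No sequence of any of the genes was available for display.

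The greatest whole difference was that of AT1G62480, which encodes a vacuolar calcium-binding protein-like protein. The study lists this gene among transcripts lowered by apical auxin and raised when cytokinin was added. That is the direction obtained when the names mock and NAA are exchanged. Its values were 7.84, 7.91 and 8.05 on mock replicates 1, 2 and 3, 10, 9.26 and 8.93 on NAA, and 10.95, 10.38 and 9.92 on NAA+BA arrays. The mock arrays lay close together (SD 0.11), while both other groups spread over about 1 unit, with replicate 1 high and replicate 3 low in each. The steps were 1.46 and 1.02, or 5.59-fold in all. No NAA array came near a mock array, but the highest NAA array was 0.08 above the lowest NAA+BA array. The vacuole is the main calcium store of plant cells, and proteins that bind the ion there buffer it.

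Of the 5 genes with a described product, 2 encode RNA-handling proteins. That count does not cover the 8 genes that carry no description here. AT3G12860 encodes a NOP56-like ribonucleoprotein; in yeast and animals, Nop56 is a core protein of the small nucleolar particles that methylate ribosomal RNA. It was at 7.47, 7.49 and 8.90 on mock, 9.27, 9.31 and 9.31 on NAA, and 9.73, 9.81 and 10.05 on NAA+BA arrays. The NAA arrays were almost equal (SD 0.03), neither step overlapped, and mock replicate 3 lay 1.42 above the mean of the other mock arrays, much nearer to NAA than to its own group. The steps were 1.34 and 0.57.

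AT1G51380 encodes a DEAD-box ATP-dependent RNA helicase, a family that unwinds RNA in splicing, ribosome assembly and translation. Its values were 5.06, 5.41 and 6.69 on mock, 7.28, 7.30 and 6.85 on NAA, and 7.54, 7.80 and 8.25 on NAA+BA arrays. The groups did not overlap, but only 0.16 separated mock replicate 3 from NAA replicate 3, whereas the other mock arrays were at 5.41 or lower and well clear of NAA. The steps were 1.42 and 0.72, the second the greatest among the 9 genes in which mock replicate 3 stood high.

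The table that accompanies the study describes 10 probe sets with words for ribosomal RNA processing, nucleoli or ribonucleoproteins, and AT3G12860 was the only stepwise gene among them. The other 9, among them fibrillarin 2 (AT4G25630), which carries out ribosomal RNA methylation, and EBP2-like AT3G22660, had first steps of 1.02 to 1.40, within the range of the stepwise genes. Their second steps ran from 0.04 to 0.41 with a median of 0.24, and none reached 0.5. A second NOP56-like probe set, assigned to AT5G27140, was at 0.36. In all 9, mock replicate 3 was above the mean of the other mock arrays, by 0.70 to 1.79. These 9 entries were picked out after the stepwise genes were known, and the table itself was selected on these samples. It holds only probe sets that changed at least 2-fold in this same contrast. First steps of at least 1 were therefore fixed by that selection.

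APL4 (AT2G21590) encodes a large subunit of ADP-glucose pyrophosphorylase, which makes the glucosyl donor for starch synthesis. It was at 5.69, 5.75 and 6.78 on mock, 6.74, 7.15 and 6.58 on NAA, and 7.22, 7.55 and 7.37 on NAA+BA arrays. Mock replicate 3 was above NAA replicates 1 and 3, so the first step of 0.75 overlapped by 0.20, and the second step of 0.56 was free of overlap by only 0.06. APL3, which encodes another large subunit of the same enzyme, had steps of 0.07 and 0.13. APL3 was at 6.34, 6.94 and 7.22 on mock, 6.90, 7.02 and 6.77 on NAA, and 6.78, 7.13 and 7.16 on NAA+BA arrays, with all groups overlapping.

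AT2G43590 encodes a chitinase-like protein, of a family whose members cleave chitin or related polymers and are known from defence and from cell wall formation. Its values were 5.38, 6.33 and 6.27 on mock, 6.72, 7.55 and 7.53 on NAA, and 7.81, 8.37 and 7.58 on NAA+BA arrays. Replicate 1 was low on mock and on NAA but not on NAA+BA, and mock replicate 3 was close to mock replicate 2. Neither step overlapped, although the second, 0.66, left only 0.03 between NAA replicate 2 and NAA+BA replicate 3. The locus lies beside other measured genes, and none of the 6 genes within 3 places of it had a first step of 0.5 or more: AT2G43580 and AT2G43600 had first steps of 0.13 and 0.32, and the chitinase gene CHI (AT2G43570) and AT2G43620 had first steps of -0.69 and -1.39.

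AT3G28560 encodes a BCS1-type AAA ATPase; in yeast, Bcs1 inserts an iron-sulfur subunit into a complex of the mitochondrial respiratory chain. It was at 5.63, 5.49 and 4.84 on mock, 6.78, 6.61 and 5.71 on NAA, and 6.72, 7.46 and 6.75 on NAA+BA arrays. Here replicate 3 was the lowest array of mock and of NAA, the reverse of the pattern in AT3G12860. The first step of 1.05 was free of overlap by 0.08, and the second, 0.61, overlapped because NAA replicate 1 was above NAA+BA replicate 1. Of 5 measured genes within 3 places of it in gene order, none had a step of 0.5 or more upwards.

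The other 8 genes carry no description in the sources used here. In 2 of them the second step was the larger and mock replicate 3 was not raised. AT4G27590 was at 4.76, 4.75 and 4.59 on mock, 5.92, 5.16 and 5.71 on NAA, and 7.06, 6.56 and 6.40 on NAA+BA arrays, with steps of 0.89 and 1.08. AT3G59270 was at 5.02, 5.04 and 4.58 on mock, 5.75, 5.76 and 5.16 on NAA, and 6.60, 6.79 and 6.56 on NAA+BA arrays, with steps of 0.67 and 1.1. Neither overlapped at either step, and AT3G59270 had the widest gap of all 14 between its NAA and NAA+BA arrays, 0.80. Their NAA+BA means, 6.67 and 6.65, were the closest of the 14 to the floor of 6.

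In the remaining 6 mock replicate 3 was high. AT4G04940 showed this most: 6.71, 7.73 and 9.14 on mock, 9.01, 9.19 and 9.20 on NAA, and 9.22, 9.55 and 10.21 on NAA+BA arrays. Its 3 mock arrays spanned more than its whole difference of 1.80 between group means, and mock replicate 3 was within the NAA arrays. Its second step, 0.53, was free of overlap by 0.02.

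AT3G10530 was at 6.45, 6.85 and 8.24 on mock, 8.24, 8.23 and 7.93 on NAA, and 8.46, 8.59 and 8.92 on NAA+BA arrays. AT5G60730 was at 6.01, 6.44 and 7.81 on mock, 7.65, 7.45 and 7.71 on NAA, and 8.20, 7.92 and 8.40 on NAA+BA arrays. In both, mock replicate 3 reached or passed the highest NAA array while mock replicates 1 and 2 were lower than every NAA array by more than 1 unit. Their first steps were 0.95 and 0.85, and their second steps, 0.53 and 0.57, did not overlap.

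AT5G17270 was at 5.98, 6.03 and 7.0 on mock, 7.14, 7.12 and 7.0 on NAA, and 7.58, 7.35 and 8.14 on NAA+BA arrays, with steps of 0.75 and 0.60. AT5G08350 was at 6.73, 6.19 and 7.07 on mock, 8.12, 7.52 and 7.21 on NAA, and 8.48, 8.35 and 7.77 on NAA+BA arrays, with steps of 0.95 and 0.58. Mock replicate 3 of AT5G17270 equalled NAA replicate 3, and in AT5G08350 the first step was free of overlap by 0.14 while the second overlapped by 0.35.

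AT3G04210 was at 5.35, 5.92 and 6.59 on mock, 5.98, 6.29 and 7.25 on NAA, and 6.65, 7.01 and 7.36 on NAA+BA arrays. Replicate 3 was the highest array in every group, and both steps, 0.55 and 0.50, were smaller than the spread within a group (SD 0.62 on mock and 0.66 on NAA). It was the only one of the 14 not called for NAA+BA over mock.

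The genes divided by how far mock replicate 3 lay above the other mock arrays, and a high value there made the first step smaller. In 9 of 14 that array was more than 0.5 above the mean of the other mock arrays, which held for 14.9% of the genes with an NAA+BA mean above 6. Among the 1266 genes that had a first step of at least 0.5 and were not stepwise, it held for 611 (48.3%). In the 9, NAA exceeded mock replicates 1 and 2 by a median of 1.38 but mock replicate 3 by a median of 0.05. In the other 5, the 2 medians were 0.84 and 1.00. The split itself set a gap of more than 0.5 between these differences in each of the 9, so the contrast is only a description. Mock replicates 1 and 2 were below every NAA array in all 14 genes, as in 3640 of all 13356. The 9 were AT1G51380, AT3G12860, AT4G04940, AT5G08350, AT3G10530, AT5G60730, AT5G17270, APL4 and AT3G04210.

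Deviations from the group means, which the choice of genes did not use, were alike in most of those 9. Their median deviation was -0.60, -0.32 and 0.95 on mock replicates 1, 2 and 3, and -0.16, -0.07 and 0.26 on NAA+BA replicates 1, 2 and 3. Replicate 3 was the highest mock array in all 9 and the highest NAA+BA array in 7, the exceptions being APL4 and AT5G08350, and on NAA the medians were 0.05, 0.03 and -0.08. In the other 5 the medians on replicate 3 were negative in every group, -0.11, -0.40 and -0.27. Across the 9 arrays, deviations of the 36 pairs among the 9 genes correlated with a median r of 0.82 (range -0.39 to 0.99). The 45 mixed pairs had a median of -0.26 (range -0.84 to 0.81). The 10 pairs among the other 5 had a median of -0.07 (range -0.36 to 0.95). These correlations describe genes on the same 9 arrays, and the first set was formed on mock replicate 3 itself. AT5G08350 stood outside it, with r of -0.39 to 0.41 with the other 8 and 0.81 with AT1G62480 from the other set.

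**Figure D3:**
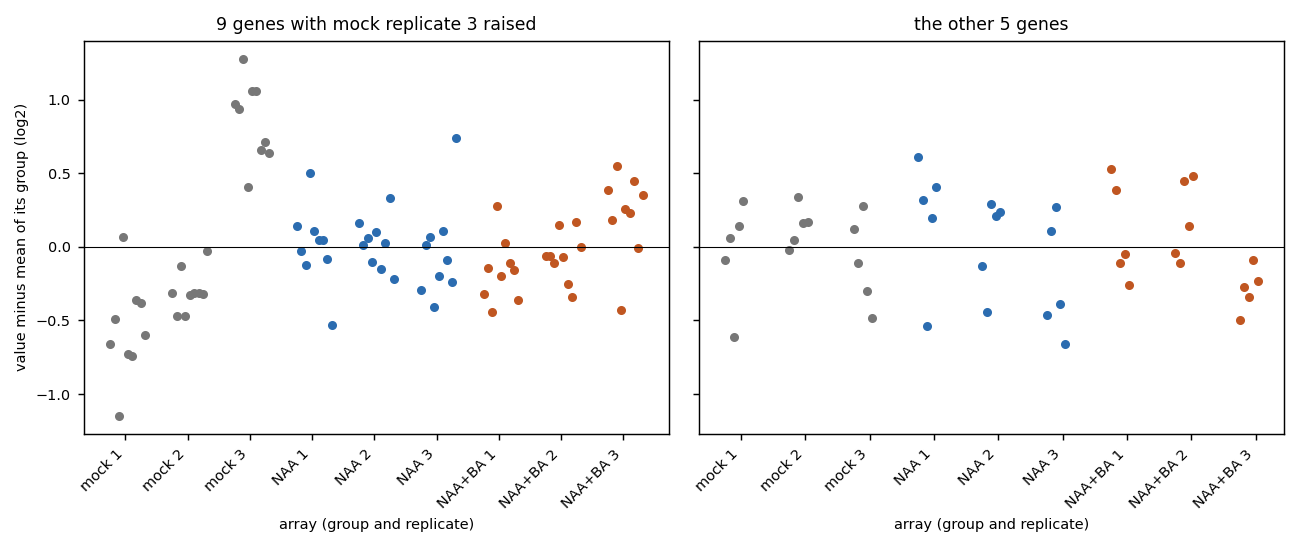
Value minus the mean of its group (log2, vertical axis) on each array (horizontal axis) for the 9 genes with mock replicate 3 raised (left) and the other 5 (right); each point is 1 gene, in the same order on every array. On the left mock replicate 3 is above 0 in all 9 genes by the split itself, and NAA+BA replicate 3 is above 0 in most. On the right NAA+BA replicate 3 is below 0 in all 5.

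By median SD, the 14 genes varied more between replicates than other genes did. Their median SD within a group was 0.59 on mock, 0.32 on NAA and 0.36 on NAA+BA arrays, against 0.23, 0.15 and 0.14 over the genes with an NAA+BA mean above 6. This did not hold for each gene, as the lowest SDs among the 14 were 0.09 on mock, 0.03 on NAA and 0.13 on NAA+BA arrays. Of the 1266 raised genes that were not stepwise, 82.1% had NAA arrays free of overlap with mock arrays and the median SD on mock was 0.32.

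For most of the genes, meeting the limits depended on single arrays. When each array was left out in turn, only AT1G62480, AT1G51380, AT4G27590 and AT3G59270 met the limits in all 9 cases. AT3G12860 and AT5G17270 met them in 8, AT5G60730 in 6 and AT3G04210 in 4, and each of the other 6 in 7. Leaving out mock replicate 3 kept all 14 and added 5 genes. Leaving out NAA+BA replicate 3 kept 8 and lost AT3G12860, AT4G04940, AT3G10530, AT5G60730, AT5G17270 and AT3G04210, all from the set of 9. Leaving out NAA+BA replicate 1 or 2 brought the count to 25 and 29 genes.

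**Figure D4:**
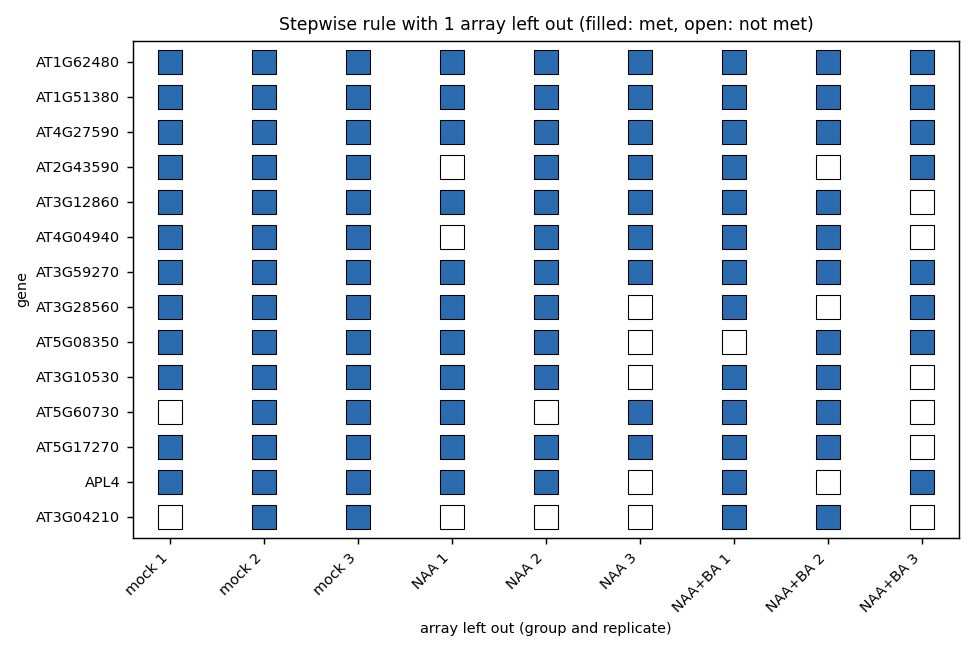
Stepwise genes (rows) that met the limits (filled) or did not (open) when the array on the horizontal axis was left out. The 4 genes with a full row are AT1G62480, AT1G51380, AT4G27590 and AT3G59270, and the column of NAA+BA replicate 3 has 6 open squares.

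For the second step, genes just inside and just outside the limit differed by a few hundredths, and for the first step they lay farther apart. The smallest first steps that qualified were 0.552 in AT3G04210 and 0.673 in AT3G59270, and the greatest that did not, among genes meeting the other limits, were 0.485 in AT1G31690 and 0.45 in AT2G30600. For the second step AT3G04210 at 0.504 and AT4G04940 at 0.527 were inside, and RR16 (AT2G40670), a type-A response regulator with a first step of 0.964, was outside at 0.481, as was AT2G45860 at 0.478. The floor of 6 decided no gene: the closest inside were AT3G59270 at 6.65 and AT4G27590 at 6.67, and no gene below it met both steps.

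The genes were scattered over the genome, with 2 on chromosome 1, 2 on chromosome 2, 5 on chromosome 3, 2 on chromosome 4 and 3 on chromosome 5. No measured neighbour of a member, up to 3 places to either side in RefSeq's gene order, was itself a member. Of 84 such places 37 had a measured gene, with a median first step of 0.02 and a median second step of 0.06. A first step of 0.5 or more was seen in 5 of them, among them AT3G12870 beside AT3G12860 (1.04) and AT2G21580 beside APL4 (0.64), both with second steps under 0. A second step of 0.5 or more was seen in 1, AT1G62510 near AT1G62480, whose first step was -2.75.

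None of the 14 lists of other pathway genes held a stepwise gene, and the lists reached few genes, because the platform table gives a symbol to few loci. Matching used gene symbols or synonyms, and only 1 of the 14 stepwise genes, APL4, has a symbol other than its locus tag. The absence of a match therefore says little about the pathways of the other stepwise genes. The list for cytokinin signalling and response matched 0 of 43 symbols, and that for bud dormancy and branching 0 of 25. Of the 2 measured ribosome biogenesis genes, the Pescadillo gene AT5G14520, needed in yeast for the large ribosomal subunit, had steps of 0.78 and 0.38, and RRP41, a subunit of the RNA exosome, had steps of 0.55 and 0.25. Of 10 measured sugar and energy genes 1 had a first step of at least 0.5, the vacuolar fructose transporter gene SWEET17 (0.67), whose second step was -0.05. The median first step of these 10 was -0.30, with 2 called lower in NAA than in mock and 0 called higher, and AKINBETA1 (-1.49) and the sugar transporter genes SWEET11 (-1.22) and SWEET1 (-0.57) had the lowest first steps.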

How the data were processed

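Gene expression was measured on Affymetrix ATH1 arrays in 3 groups of 3 biological replicates. The authors deposited log2 values, which they obtained with the robust multichip algorithm (RMA) in R 2.15 and tested with limma. Package versions for RMA and limma were not given in the sources used here. RMA summarises the probes of a set relative to all arrays normalised together, so a level is comparable between arrays for 1 probe set, and levels of different genes are not set against each other. The labels name an Enzo labelling kit and the study's methods an Ambion amplification kit. All 22810 probe sets were used without further transformation. Precision is limited by the number of arrays, 3 in a group.

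Samples were grouped by their labels in the deposit. Gene names came from the platform annotation, in which 13513 probe sets have 1 gene, 503 several and 8794 none, and for a gene with several the one with the highest mean was kept, which left 13356 genes. The genes, lists and markers were chosen with earlier results of these data known, and all 14 genes are named with their values on each array. Differences were fitted with limma 3.58.1 in R 4.3.3 (lmFit and eBayes, 3 group means over 9 arrays), with Benjamini-Hochberg adjustment across the 22810 probe sets. Called means an adjusted p under 0.05 and at least 2-fold. The fit was tested on simulated data.

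Replicate numbers were examined for pairing: deviations of same-numbered NAA and mock arrays correlated at 0.32, 0.38 and 0.45. Differently numbered arrays were not compared, so these values do not settle whether the numbers mark pairs. The main counts come from the fit without pairing. With the replicate number as a block, 6 of 14 genes were called for NAA over mock in place of 5, the added one being AT4G04940. Alternatives were other limits, scalings, filters, array weights and leaving out each array. Counts of promoter motifs were not run, as no sequence was given.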

Additional observations from a re-analysis of the deposited data

How the results depend on the processing

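The list of 14 genes depended on its limits: 40 genes met steps of 0.4, 7 met steps of 0.6, and 0 met the limits with the names mock and NAA exchanged. With 1 array left out, 13 to 29 genes met them, the most without NAA+BA replicate 2 (29) and NAA+BA replicate 1 (25). Group medians gave 15 genes, 8 of them among the 14, and centring each array on its median kept 10.

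Calls and overlaps in this paragraph are counted over the 14 genes only, without shares over all genes under each setting. They are not read as particular to these genes. For NAA over mock, 5 genes were called. Without a fold threshold 8 were, at an adjusted p under 0.01 1 was, with array weights 11 were, and with a fit to the 6 arrays compared 2 were. Leaving out 1 array gave 1 to 10: 1 without mock replicate 1, 2 without mock replicate 2, NAA replicate 1 or NAA replicate 2, and 10 without mock replicate 3. For NAA+BA over mock the 13 calls became 8 at an adjusted p under 0.01, and 10 to 14 with 1 array left out. For NAA+BA over NAA the 0 calls became 1 with the replicate block (AT3G59270) and 1 with array weights (AT4G27590), and stayed 0 with 1 array left out. Same-numbered arrays correlated at 0.24, 0.08 and 0.51 for NAA+BA and mock and at 0.04, 0.30 and 0.36 for NAA+BA and NAA. These values do not settle the pairing either. With the replicate block there were 14 calls for NAA+BA over mock. Genes free of overlap between NAA and mock went from 8 to 14 without mock replicate 3 (8 to 14 over all arrays left out), and those between NAA+BA and NAA from 10 to as many as 13 with 1 array left out.

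Each step of the 14 genes kept its sign under another quantile normalization, centring on the array median, group medians and each array left out, but some shrank much: the first step of AT3G04210 from 0.55 to 0.18 without NAA replicate 3, and the second steps of AT4G04940 from 0.53 to 0.25 without NAA+BA replicate 3, of AT2G43590 from 0.66 to 0.29 with group medians and of AT3G28560 from 0.61 to 0.14 with group medians. The number of arrays, 3 a group with a median SD of up to 0.59 over these genes, limits what steps near 0.5 can show.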
